A study of Mus musculus with 24 samples.

Results

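The 32 genes described here are transcriptional targets of p53 that carry out its downstream programme, and they were taken by gene symbol from a table of 19895 entries. Of these, 29 had an entry of their own, and Plk3, Ddb2 and Fbxw7 shared an entry with a second gene, so that their reads could not be assigned to one gene. All 29 passed the filter of a count above 0 in every library, which left 11438 entries for testing.

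The organoids were ductal epithelium of mouse pancreas grown as three-dimensional cultures. N organoids were normal ductal cultures from wild-type C57Bl/6J mice, and KP organoids came from pancreatic tumours of mice in which Pdx1-Cre, active in the pancreatic lineage, recombined tumour-driving alleles. Each type received vehicle (DMSO) or 10 nM CR-31 (labelled CR1-31-b), a rocaglate inhibitor of the RNA helicase eIF4A, for 1 h, and all cultures were kept without EGF and N-acetyl-cysteine. From each of 12 lysates, mRNA bound by at least 3 ribosomes (polysome-associated mRNA) and total mRNA were sequenced, giving 8 groups of 3 libraries. Whether replicates came from separate mice is not given in the sources used here, so p-values measure only the spread between these samples. No code taken here as the sequencing lane was shared by N and KP libraries. Organoid type and this code therefore cannot be told apart in any comparison of KP with N.

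p53 is a transcription factor that is stabilised by DNA damage and oncogenic stress and binds DNA as a tetramer at pairs of a short half-site. Its targets stop the cell cycle, trigger apoptosis, repair DNA, adjust metabolism and autophagy, and feed back on the damage signal itself.

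The promoters show which members carry the letters that p53 recognises. The RefSeq table (GRCm38.p6) gave windows from 250 bases before to 50 bases after the start site for 25 of the 32 members, and an exact copy of the p53 half-site consensus, searched on both strands (the consensus reads the same on each), lay in 9 of the 25 (36%), against 9.55% of all 27025 symbols in that table. The sites of the 5 members that also differed between KP and N organoids in vehicle are shown, 5′ to 3′ along the gene's strand, with the 10 bases of the half-site in capitals and 10 bases on each side.
Gtse1, chr15:85859945-85859974 (+): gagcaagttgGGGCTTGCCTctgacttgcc
Rps27l, upstream copy, chr9:66946193-66946222 (+): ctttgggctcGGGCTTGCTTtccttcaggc
Rps27l, copy nearer the start, chr9:66946296-66946325 (+): gggcttgttgAGACTTGTCCgggcgacacg
Ckap2, chr8:22186003-22186032 (-): ctgtgtctgaAGACATGTCCtgacttgtca
Ccng1, chr11:40755452-40755481 (-): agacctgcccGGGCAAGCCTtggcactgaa
Ppm1d, chr11:85311112-85311141 (+): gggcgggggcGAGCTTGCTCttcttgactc

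The other 4 members with an exact copy were Aen, Ei24, Polk and Sesn1. Trp53inp1, Zmat3, Perp, Tnfrsf10b, Rrm2b, Ddb2 and Xpc had no window in the table. With up to 1 mismatch outside the core, 15 of 25 members (60%) held a match, against 42.8% of all symbols. A match describes the letters in these windows, and binding was not measured.

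Libraries held 47308461 to 267463046 counts, and single members had 82 (Fas) to 150379 (Rps27l) counts in a library. The ductal label was met: 9 of 9 duct markers were above 0 in every library, while the summed fibroblast markers (Col3a1 at 0 in all) reached at most 0.98 CPM (counts scaled to library size). The 3 acinar markers summed to 3.22 to 5.3 CPM, with Cpa1 at 0 in all and Cela1 above 0 in every library. In some lysates the fractions went opposite ways. In N replicate 3 the change from vehicle to CR-31 had opposite signs in polysome-associated and total mRNA for 26 of 29 members (81.2% of all 11438 genes), against 2 and 7 of 29 (24.4% and 35.8% of all genes) in N replicates 1 and 2. In KP replicate 1 the signs were opposite for 16 of 29 members (67.6% of all genes), and KP replicates 2 and 3 each had 7 (22.5% and 33.4% of all genes). Whether libraries of these lysates were exchanged was not tested, and none was relabelled. Counts without them are given for some comparisons only. For KP against N in vehicle, no count within a fraction is given without both N replicate 3 lysates. The total mRNA count of that comparison is not given without both KP replicate 1 lysates either.

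Per length of transcript, the members spanned a wide range of levels. In total mRNA of N organoids in vehicle, the highest level was that of Rps27l, a ribosomal protein paralogue, at 898 ± 57.2 RPKM (reads scaled to transcript length and library size, SD, n = 3). Ei24, an endoplasmic reticulum membrane protein, followed at 122 ± 3.36 RPKM, Ccng1, which encodes cyclin G1, lay at 119 ± 41.8 RPKM and Perp at 119 ± 23.3 RPKM. These last 3 did not differ beyond their spread. The lowest levels were those of Polk, at 1.41 ± 0.39 RPKM, and Sesn1, at 1.22 ± 0.144 RPKM, whose ranges over the 3 libraries overlapped (1.12 to 1.85 and 1.06 to 1.31 RPKM). In KP organoids in vehicle Rps27l was again highest at 1190 ± 83 RPKM, and the death receptor gene Fas was lowest at 1.04 ± 0.413 RPKM.

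Comparing KP with N organoids in vehicle asked how these genes differ between tumour and normal cultures. In polysome-associated mRNA 15 of 29 members passed an adjusted p of 0.25, the study's threshold. They split almost evenly, with 7 higher in KP (24.1%, against 20.9% of all genes) and 8 lower (27.6%, against 22.2% of all genes). At an adjusted p of 0.05, 8 of 29 passed, against 15.2% of all genes. The median log2 fold change of the members was 0.05 (all genes -0.03) and their median absolute change 0.54 (all genes 0.49). The members therefore moved in both directions, with single genes far from 0 and no common shift. The 3 libraries of each type did not overlap for 10 of 29 members, close to the 33.8% of all genes. Without both KP replicate 1 lysates 9 members passed, 5 higher (against 13.1% of all genes) and 4 lower (against 11.7% of all genes), and the calls of Ckap2, Phlda3, Plk2, Sfn, Trp53inp1 and Rrm2b were lost.

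**Figure D1:**
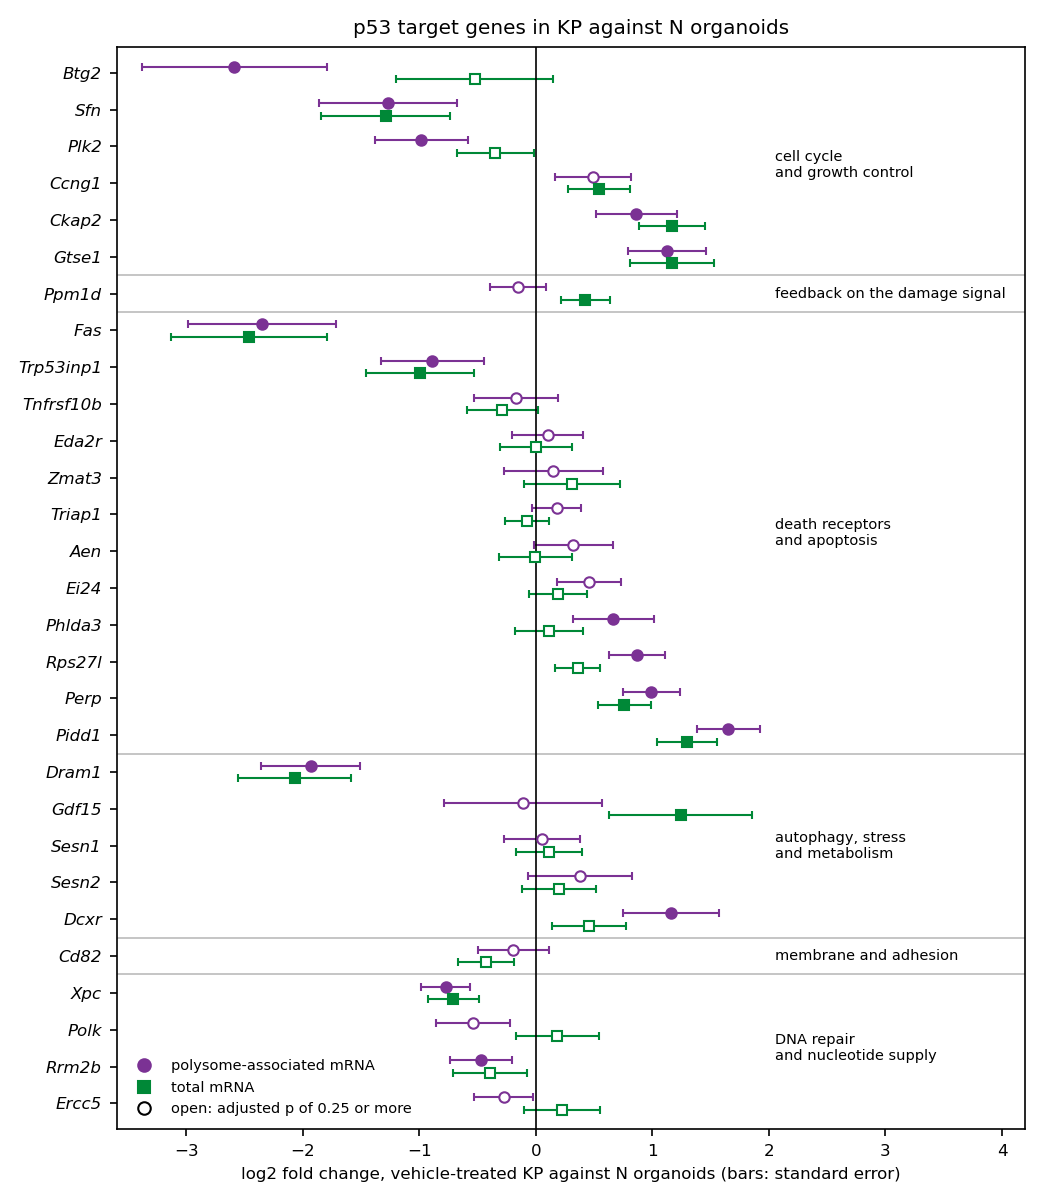
Log2 fold change of KP against N organoids in vehicle for the 29 members with an entry of their own, in polysome-associated and total mRNA, grouped by role, with bars for the standard error from edgeR (3 libraries a group) and open symbols for members that did not pass. Pidd1, Perp, Gtse1 and Ckap2 lay above 0 and Dram1, Fas and Xpc below 0 in both fractions, while Btg2 was far lower in polysome-associated mRNA (-2.59) than in total mRNA (-0.53).

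Among cell cycle and growth genes, 2 of the 6 tested members were higher in KP polysomes (against 20.9% of all genes) and 3 were lower (against 22.2%). Gtse1, a microtubule-binding protein of the G2 phase that restrains p53, had 29.7, 28.6 and 19.5 CPM in the N libraries and 58.0, 53.7 and 57.8 CPM in the KP libraries. All KP values of Gtse1 lay above all N values, with a log2 fold change of 1.12 ± 0.33 (SE, adjusted p = 0.0411, edgeR). In total mRNA Gtse1 was 39.9, 42.3 and 18.2 CPM in N and 78.0, 77.1 and 70.4 CPM in KP, again without overlap (1.17 ± 0.36, adjusted p = 0.0672).

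Ckap2, a mitotic spindle protein, had 25.8, 33.7 and 20.2 CPM in total mRNA of N and 76.3, 37.2 and 65.3 CPM in KP. The groups did not overlap, although KP replicate 2 sat close to the N libraries, and the log2 fold change was 1.16 ± 0.28 (adjusted p = 0.0283). In polysomes Ckap2 was 24.8, 35.8 and 27.7 CPM in N and 63.7, 35.7 and 60.8 CPM in KP, so that KP replicate 2 fell within the N range (0.86 ± 0.35, adjusted p = 0.108). The polysome call of Ckap2 was lost without KP vehicle replicate 1 (0.72, adjusted p = 0.286) and held in 20 of 23 other settings. Markers of proliferation moved with these 2 genes: 5 of 7 in polysomes and 7 of 7 in total mRNA were higher in KP (Mki67, Top2a, Ccnb1, Cdk1, Bub1, Aurkb and Plk1 in the list), and their part in the change of Gtse1 and Ckap2 was not tested.

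Btg2, an antiproliferative gene that recruits the deadenylation machinery to mRNAs, gave the largest polysome change of any member, and it rested on N replicate 3. Its polysome values were 171, 125 and 1560 CPM in N and 73.1, 135 and 99.7 CPM in KP. N replicate 2 lay within the KP range, N replicate 1 lay above it, and N replicate 3 stood far above every other (-2.59 ± 0.80, adjusted p = 0.0465). Without both N replicate 3 lysates the log2 fold change was -0.53 (adjusted p = 0.345), and in total mRNA, with 218, 188 and 142 CPM in N and 92.6, 162 and 125 CPM in KP, it was -0.53 ± 0.67 (adjusted p = 0.685). The immediate early genes moved with Btg2 in that library (Egr1 at 2541 CPM), and all 5 of that list were lower in KP polysomes. Their part in the change of Btg2 was not tested.

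Plk2, a stress-induced polo-like kinase, was lower in KP polysomes with 229, 152 and 278 CPM in N and 92.2, 110 and 131 CPM in KP. These groups did not overlap (-0.98 ± 0.40, adjusted p = 0.111), and the Plk2 call held in 20 of 23 other settings but not without KP vehicle replicate 1 (-0.86, adjusted p = 0.285), whereas total mRNA gave -0.35 (adjusted p = 0.564). Sfn, which encodes the G2 checkpoint protein stratifin, was 146, 35.2 and 199 CPM in N polysomes and 65.3, 56.3 and 35.9 CPM in KP. The second N library lay below every KP library (-1.27 ± 0.59, adjusted p = 0.16), and without N replicate 3 the Sfn call was lost (-0.78). In total mRNA Sfn passed as well (-1.29 ± 0.55, adjusted p = 0.177), but gave -0.61 (adjusted p = 0.49) without N vehicle replicate 1. Ccng1 passed in total mRNA only, at 613, 384 and 391 CPM in N and 771, 687 and 558 CPM in KP (0.54 ± 0.27, adjusted p = 0.24). The Ccng1 call held in 13 of 23 other settings, with 0.43 (adjusted p = 0.528) without KP vehicle replicate 1, and the difference between its fractions did not pass the test described further on.

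**Figure D2:**
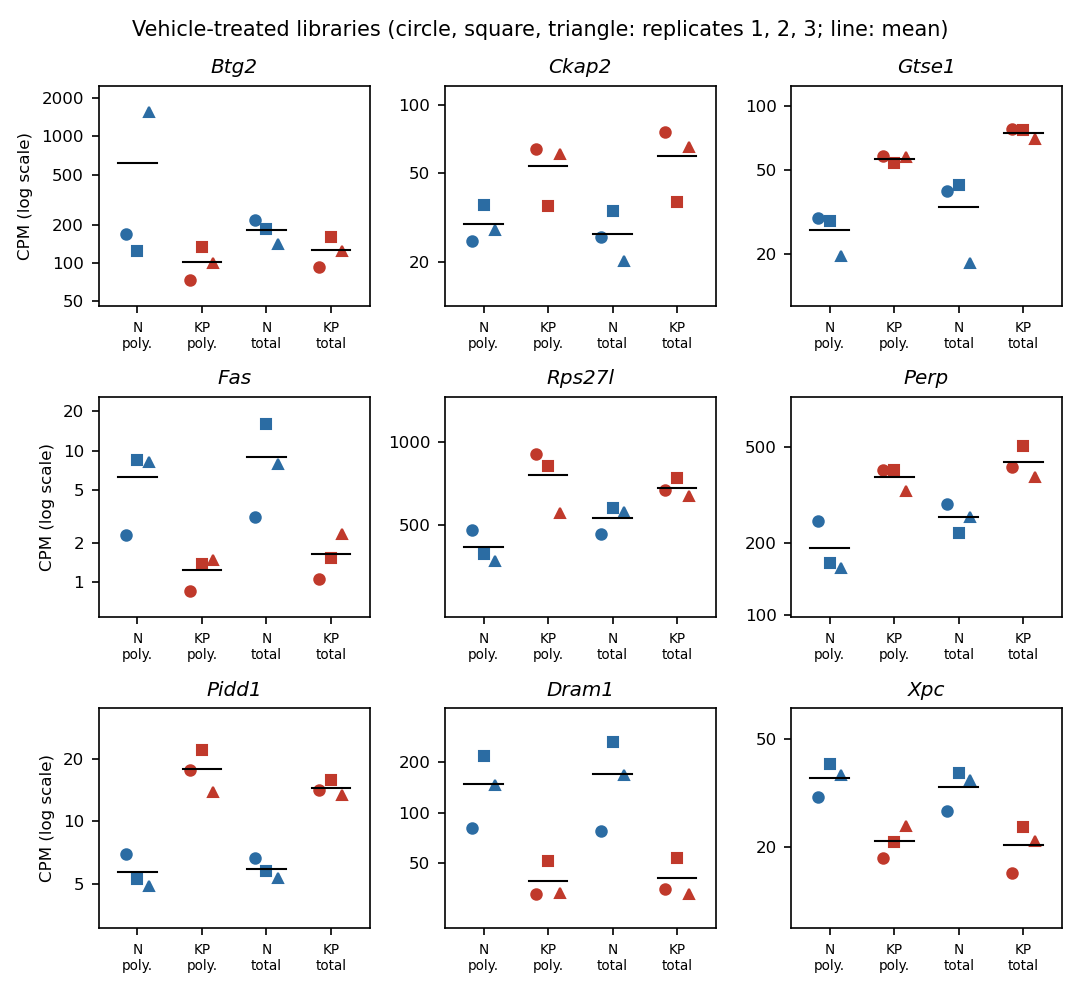
CPM on a log axis in each of the 3 vehicle libraries of N and KP organoids, in polysome-associated (poly.) and total mRNA, for the 9 members that passed an adjusted p of 0.05 in either fraction, with a line at the mean (N in blue, KP in red). KP and N libraries were separate for Pidd1, Dram1, Fas, Perp and Gtse1 in both fractions, and a single N polysome library carried the high mean of Btg2.

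The death receptor and apoptosis genes, 12 members, had 4 higher (against 20.9% of all genes) and 2 lower (against 22.2%) in KP polysomes. Pidd1, the scaffold of the complex that activates caspase-2, had the lowest adjusted p of any member. It was at 6.96, 5.26 and 4.86 CPM in N polysomes and at 17.8, 22.1 and 13.9 CPM in KP, a 3.14-fold difference (1.65 ± 0.27 on the log2 scale, adjusted p = 0.00445). Total mRNA of Pidd1 was 6.63, 5.75 and 5.32 CPM in N and 14.2, 15.8 and 13.4 CPM in KP (1.30 ± 0.26, adjusted p = 0.0127). Each KP library was thus above each N library in both fractions.

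Perp, a desmosomal membrane protein with pro-apoptotic activity, was 246, 165 and 156 CPM in N polysomes and 401, 399 and 327 CPM in KP (0.99 ± 0.24, adjusted p = 0.0219). In total mRNA it was 290.0, 218 and 254 CPM in N and 414, 503 and 374 CPM in KP (0.76 ± 0.23, adjusted p = 0.0622). Rps27l was 481, 394 and 371 CPM in N polysomes and 905, 815 and 550 CPM in KP (0.87 ± 0.24, adjusted p = 0.0345). Neither Perp nor Rps27l overlapped between types in either fraction, although Rps27l did not pass in total mRNA (0.36, adjusted p = 0.283). Phlda3, an inhibitor of Akt signalling, passed in polysomes only (0.66 ± 0.35, adjusted p = 0.207), and its KP value of 169 CPM in replicate 3 lay within the N range of 111 to 203 CPM. The Phlda3 call was lost without KP vehicle replicate 2 (0.41, adjusted p = 0.518), N vehicle replicate 2 (0.43, adjusted p = 0.485) or KP vehicle replicate 1 (0.63, adjusted p = 0.361).

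Fas went the other way, with 2.29, 8.53 and 8.21 CPM in N polysomes and 0.867, 1.38 and 1.48 CPM in KP. In total mRNA Fas was 3.13, 16.1 and 7.93 CPM in N and 1.06, 1.53 and 2.32 CPM in KP. All KP values lay below all N values, by -2.35 ± 0.63 in polysomes (adjusted p = 0.0299) and -2.46 ± 0.67 in total mRNA (adjusted p = 0.041), and N replicate 1 was the lowest N library in both fractions. Trp53inp1, a stress protein that promotes apoptosis and autophagy, was also lower (-0.89 ± 0.44, adjusted p = 0.185 in polysomes and -1.0 ± 0.46, adjusted p = 0.21 in total mRNA). Its total mRNA was 203, 129 and 158 CPM in N and 72.1, 92.7 and 80.3 CPM in KP, without overlap, but in polysomes N replicate 3, at 88.8 CPM, lay among the KP values of 83.1 to 171 CPM, and the polysome call held in 17 of 23 other settings, with -0.63 (adjusted p = 0.395) without N vehicle replicate 1. The total mRNA call of Trp53inp1 held in 16 of 23, with -0.91 (adjusted p = 0.444) without KP vehicle replicate 1. The other members of this role, Zmat3, Eda2r, Aen, Tnfrsf10b, Ei24 and Triap1, passed in neither fraction, with polysome values from -0.17 (Tnfrsf10b, the TRAIL receptor) to 0.46 (Ei24).

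Among the 5 genes of autophagy, stress and metabolism, Dram1, a lysosomal membrane protein needed for p53-driven autophagy, was 80.8, 219 and 147 CPM in N polysomes and 32.5, 51.3 and 33 CPM in KP. Total mRNA of Dram1 was 77.8, 265 and 168 CPM in N and 34.9, 53.8 and 32.8 CPM in KP. The groups were apart in both fractions (-1.93 ± 0.42, adjusted p = 0.0137 and -2.07 ± 0.48, adjusted p = 0.0238). As for Fas, N replicate 1 was the N library nearest to KP.

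Dcxr, a reductase of dicarbonyls and xylulose, passed in polysomes with 36.6, 56.6 and 95.1 CPM in N and 117, 209 and 95.0 CPM in KP (1.16 ± 0.41, adjusted p = 0.0737). KP replicate 3 matched the highest N library, and without KP vehicle replicate 2 Dcxr was at 0.76 (adjusted p = 0.278, called in 21 of 23 other settings). Its total mRNA did not pass (0.46, adjusted p = 0.417). Gdf15, a secreted stress cytokine, passed in total mRNA with 54.2, 38 and 46.2 CPM in N and 122, 114 and 91.0 CPM in KP (1.24 ± 0.61, adjusted p = 0.237), a call that held in 13 of 23 other settings (1.15, adjusted p = 0.444 without KP vehicle replicate 1). The polysome difference of Gdf15 was -0.11 (adjusted p = 0.932) with N replicate 3 at 332 CPM, and 1.71 (adjusted p = 0.0122) without both N replicate 3 lysates. The sestrins Sesn1 and Sesn2, which restrain mTORC1, gave polysome values of 0.05 (adjusted p = 0.936) and 0.38 (adjusted p = 0.589).

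Of the 4 DNA repair genes tested, 0 were higher and 2 lower in KP polysomes, against 20.9% and 22.2% of all genes. Xpc, which recognises damage in nucleotide excision repair, was 30.6, 40.5 and 36.7 CPM in N polysomes and 18.2, 20.9 and 23.8 CPM in KP (-0.78 ± 0.21, adjusted p = 0.0301). In total mRNA Xpc was 27.1, 37.4 and 35.2 CPM in N and 16.1, 23.8 and 21 CPM in KP (-0.71 ± 0.22, adjusted p = 0.0638). The 2 types did not overlap in either fraction. Rrm2b, the p53-induced subunit of ribonucleotide reductase, passed in polysomes alone (-0.47 ± 0.27, adjusted p = 0.242) and in 8 of 23 other settings, with -0.25 (adjusted p = 0.573) without N vehicle replicate 1 and -0.73 without N vehicle replicate 3, while the excision nuclease Ercc5 (-0.28, adjusted p = 0.482) and the translesion polymerase Polk (-0.54, adjusted p = 0.256) did not.

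Outside these roles, Ppm1d, the phosphatase that switches off the damage signal, passed in total mRNA with 12.3, 16.7 and 14.7 CPM in N and 20.4, 18.9 and 19.3 CPM in KP (0.42 ± 0.21, adjusted p = 0.245), and in 10 of 23 other settings, with 0.39 (adjusted p = 0.474) without KP vehicle replicate 1. In polysomes Ppm1d gave -0.15 (adjusted p = 0.703). The tetraspanin Cd82 passed in neither fraction (-0.20, adjusted p = 0.697 and -0.43, adjusted p = 0.3). Of the entries that held a second gene, the one of Ddb2 and Acp2 was lower in KP (-0.67, adjusted p = 0.0809 in polysomes and -0.55, adjusted p = 0.19 in total mRNA), and those of Plk3 and Fbxw7 did not pass.

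In total mRNA as a whole 12 of 29 members passed, 7 higher (against 13.1% of all genes) and 5 lower (against 15.4% of all genes). At an adjusted p of 0.05 the 4 that passed were Fas, Pidd1, Dram1 and Ckap2, against 8.99% of all genes. Members without overlap between types were 11 of 29, against 32.4% of all genes. Pidd1, Perp, Gtse1 and Ckap2 were higher, and Fas, Dram1, Xpc, Trp53inp1 and Sfn lower, in both fractions. How many of all genes passed in both was not counted. Other markers moved with organoid type too. The macrophage marker Cd68 was lower in KP in both fractions, as was the fibroblast gene Col1a1, with the 4 immune markers summing to 2 to 27.6 CPM and the 5 fibroblast markers to 0.044 to 0.98 CPM over all libraries, and 5 of the 9 duct markers were lower in KP polysomes and 1, Krt7, higher. Their part in the lower values of Fas, Dram1 and the other members was not tested, and in bulk libraries fewer cells of a kind and less RNA per cell cannot be told apart.

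The members with an exact half-site in their window were compared with the rest as a description. Of the 9 with a match, 3 were higher and 0 lower in KP polysomes, with a median log2 fold change of 0.46, and in total mRNA 4 were higher and 0 lower, with a median of 0.36. Of the 14 tested members with a window and no exact match, 3 were higher and 5 lower in polysomes (median -0.15), and 2 were higher and 3 lower in total mRNA (median -0.04). Of all genes tested, 20.9% were higher and 22.2% lower in polysomes, and 13.1% and 15.4% in total mRNA. These numbers are small, and Gtse1 and Ckap2 are among those with a match.

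Other genes of the pathway, from a list of 12 of which 9 could be tested, gave the setting. The arrest gene Cdkn1a (0.27, adjusted p = 0.572) and the p53 ligase gene Mdm2 (-0.24, adjusted p = 0.677) did not pass in polysomes. Bax was higher (0.95, adjusted p = 0.015) and Mdm4 (-0.95, adjusted p = 0.0139) and Pmaip1 (-1.97, adjusted p = 0.000629) were lower, and only Pmaip1 passed in total mRNA as well (-2.02, adjusted p = 0.0107).

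In CR-31 the same comparison uses other libraries. In polysomes 5 members were higher in KP (against 11.2% of all genes) and 3 lower (against 13.8% of all genes). The higher ones were Pidd1 (1.26), Perp (0.93), Gtse1 (1.24), Ckap2 (1.39) and Gdf15 (1.70), and the lower ones Fas (-1.93), Dram1 (-2.01) and Xpc (-0.81). In total mRNA 7 members were higher (against 18.9% of all genes) and 9 lower (against 21% of all genes), among them Ei24 (0.54), Cd82 (-0.51) and Btg2 (-1.95). Pidd1, Perp, Gtse1, Ckap2, Fas, Dram1 and Xpc passed with the same sign in both treatments and both fractions. The share of all genes that did so was not counted, and the fractions share lysates. The Btg2 difference in total mRNA rested on N replicate 3, at 1753 CPM against 261.2 and 172.2 CPM in N replicates 1 and 2. Without both KP replicate 1 lysates 4 members were higher (against 3.36% of all genes) and 2 lower (against 4.93%) in polysomes, and 5 were higher (against 7.24%) and 3 lower (against 8.58%) in total mRNA. The calls lost were those of Fas (-1.85, adjusted p = 0.32) and Gdf15 (1.61, adjusted p = 0.428) in polysomes, and of Xpc (-0.45, adjusted p = 0.305), Ei24, Dcxr, Trp53inp1, Plk2, Btg2, Rrm2b and Cd82 in total mRNA. Of the 7 genes that passed throughout, Pidd1, Perp, Gtse1 and Dram1 passed in both treatments and both fractions without those lysates too, and Ckap2, Fas and Xpc each lost 1 call.

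Whether CR-31 altered these genes was asked within each organoid type. In KP polysomes 0 of 29 members passed, as did 0% of all genes, and 0 members had an unadjusted p under 0.05 (406 of all genes did). In KP total mRNA 0 members passed and 0 had an unadjusted p under 0.05 (109 of all genes did). In N organoids 0 members passed, and those with an unadjusted p under 0.05 were Btg2 and Gdf15 in polysomes (48 of all genes) and Btg2, Plk2 and Gdf15 in total mRNA (297 of all genes). DESeq2 also called 0 members in all 4 comparisons, and of all genes it called 0 in polysomes of either type, 8 in KP total mRNA and 13 in N total mRNA. The libraries of vehicle and CR-31 with the same number deviated together, however (r of 0.45 to 0.89 in 12 of 12 pairs), and with the replicate as a block within each type 7 members passed in KP polysomes.

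With the block, 4 members were higher in CR-31-treated KP polysomes (against 8.3% of all genes) and 3 were lower (against 11.1% of all genes). Polk was 9.36, 10.4 and 8.56 CPM in vehicle and 13, 19.1 and 11.9 CPM in CR-31. It rose in 3 of 3 pairs (0.61 ± 0.27, adjusted p = 0.247 with the block and 1 without). Ckap2 was 63.7, 35.7 and 60.8 CPM in vehicle and 105, 58.6 and 83.4 CPM in CR-31, likewise higher in 3 of 3 pairs (0.63 ± 0.19, adjusted p = 0.192 with the block). Ercc5 (0.47 ± 0.18, adjusted p = 0.214) was 15.7, 15.1 and 14.2 CPM in vehicle and 20.8, 26.2 and 16.3 CPM in CR-31, and Tnfrsf10b (0.38 ± 0.16, adjusted p = 0.233) completed this group. These calls depended on the lysates entered. With the same block, leaving out both N replicate 3 lysates gave 9 members higher (against 25.1% of all genes) and 9 lower (against 29% of all genes), and leaving out both KP replicate 1 lysates gave 0 of either (against 0% and 0.00868% of all genes). Without those KP lysates Ckap2 was at 0.58 and Polk at 0.68 (adjusted p = 0.647 for both).

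The lower members under the block were Dcxr, Pidd1 and Phlda3. Dcxr fell from 117, 209 and 95.0 CPM to 75.5, 116 and 81.0 CPM (-0.57 ± 0.15, adjusted p = 0.192). Pidd1 fell from 17.8, 22.1 and 13.9 CPM to 12.9, 13.5 and 13.3 CPM (-0.41 ± 0.16, adjusted p = 0.221). Phlda3 (-0.35 ± 0.15) passed just under the threshold. Dcxr, Pidd1 and Phlda3 were also among the genes higher in KP than in N polysomes in vehicle, but these comparisons share the KP vehicle libraries. Replicate 3 showed the smallest drop of each. In KP polysomes 20 of 29 members moved the same way in 3 of 3 pairs, against 59.5% of all genes, and in KP total mRNA 14 did, against 27.2% of all genes. In KP total mRNA CR-31 replicate 1 stood apart for Trp53inp1, at 19.2 CPM against 113 and 70.4 CPM, and for Rrm2b, at 3.75 CPM against 7.78 and 6.80 CPM.

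**Figure D3:**
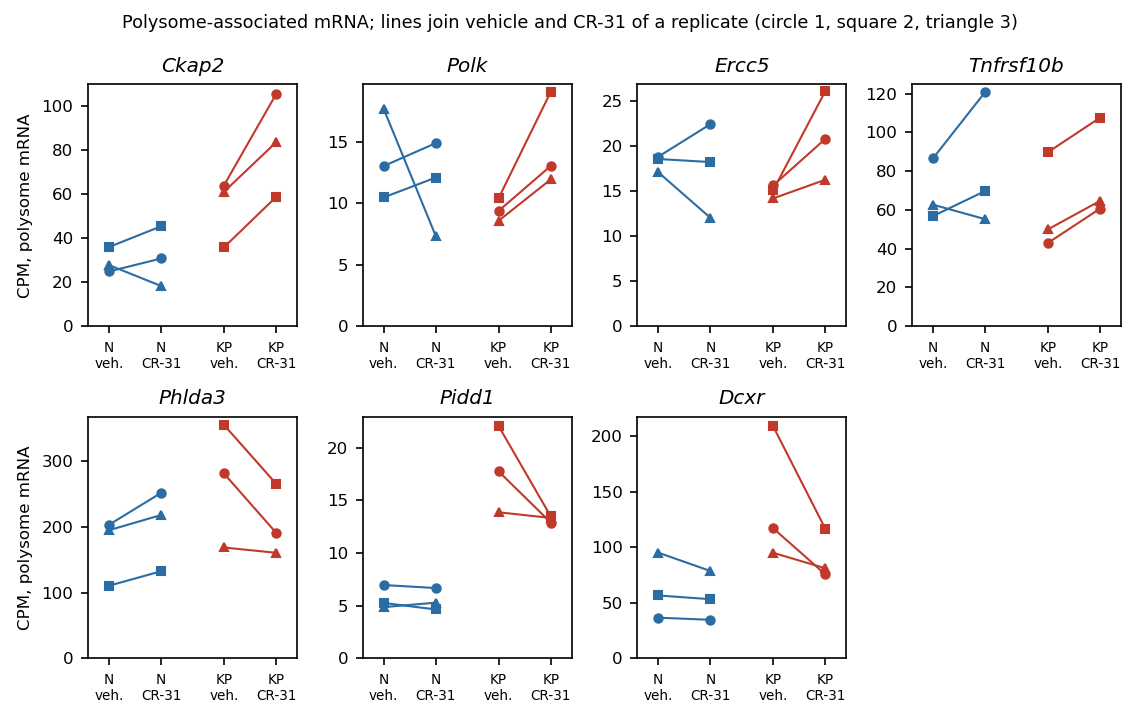
CPM on a linear axis from 0 in polysome-associated mRNA of vehicle and CR-31 libraries, joined by replicate number (N in blue, KP in red), for the 7 members that passed with the block in KP organoids. In KP organoids each line of Ckap2, Polk, Ercc5 and Tnfrsf10b rose and each line of Phlda3, Pidd1 and Dcxr fell, while in N organoids replicate 3 of Ckap2, Polk, Tnfrsf10b and Pidd1 ran against the other 2 replicates.

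In N organoids the largest changes came from 1 lysate pair. Btg2 in polysomes was 171, 125 and 1560 CPM in vehicle and 206, 120 and 114 CPM in CR-31 (-2.08 ± 0.78, unadjusted p = 0.0206, adjusted p = 1), and in total mRNA 218, 188 and 142 CPM in vehicle and 261.2, 172.2 and 1753 CPM in CR-31 (2.00 ± 0.70, unadjusted p = 0.0142, adjusted p = 1). Gdf15 in polysomes was 49.6, 27.8 and 332 CPM in vehicle and 57.2, 26.6 and 41.9 CPM in CR-31, and in total mRNA 54.2, 38 and 46.2 CPM in vehicle and 61.8, 30.4 and 283 CPM in CR-31. Both genes were thus high in the vehicle polysome library and the CR-31 total library of replicate 3 and nowhere else in N. Egr1 shared that pattern, at 2541 CPM and 4353 CPM in those 2 libraries and 106 and 139 CPM in the CR-31 polysome and vehicle total libraries of the same replicate. Without both N replicate 3 lysates the polysome changes were 0.15 for Btg2 and 0.12 for Gdf15. Ppm1d, with the third lowest p in N polysomes, was 14.9, 18.9 and 26.3 CPM in vehicle and 13.8, 18.4 and 16.1 CPM in CR-31 (-0.32 ± 0.24, unadjusted p = 0.218, adjusted p = 1), with N replicate 3 again setting most of the difference.

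**Figure D4:**
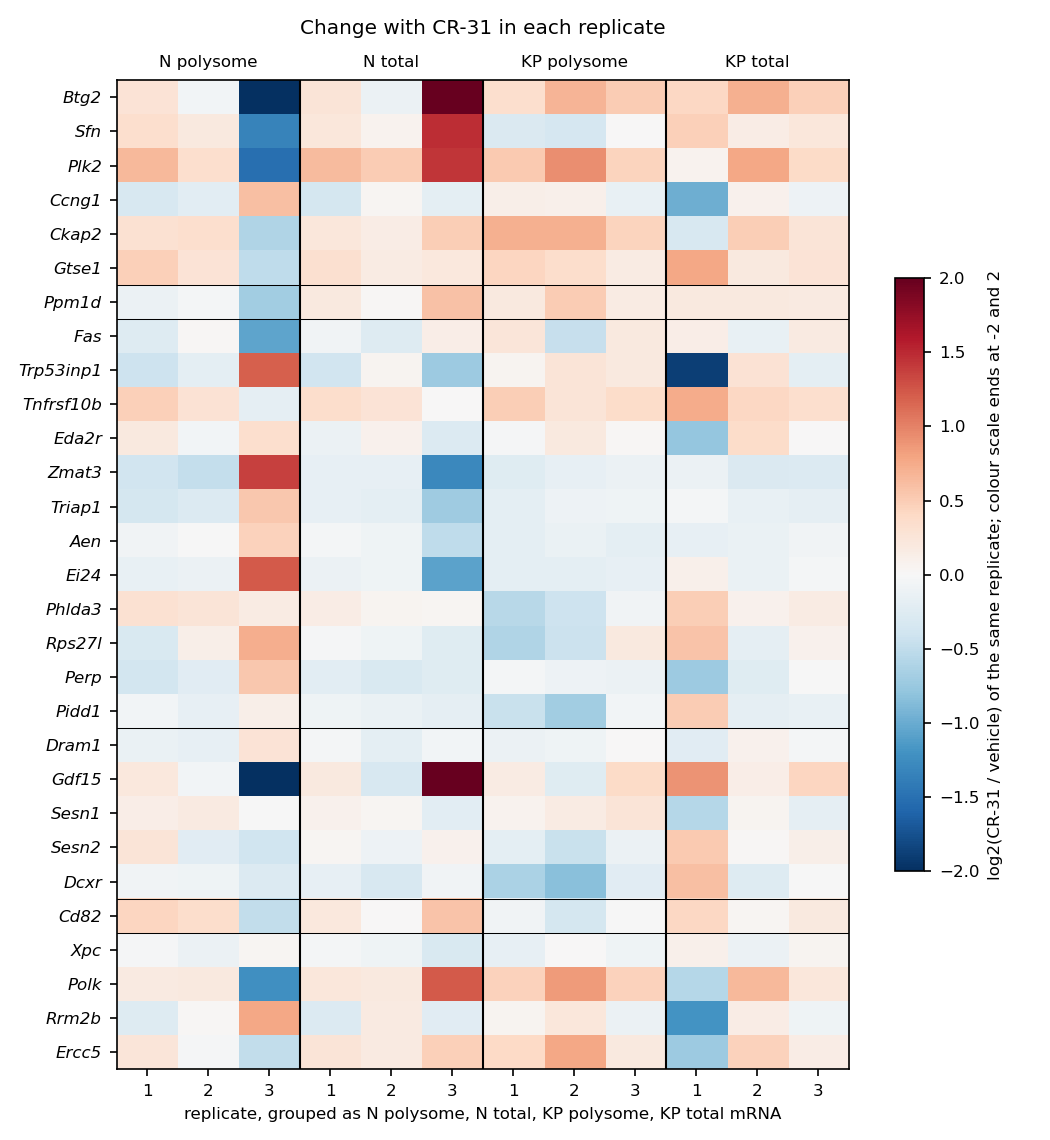
Log2 ratio of CR-31 to vehicle (CPM, pseudocount 0.5, red for higher in CR-31, colour scale ending at -2 and 2) for each of the 29 members in each replicate, in polysome-associated and total mRNA of N and KP organoids. N replicate 3 carried opposite signs in its 2 fractions for 26 of 29 members, and Btg2 was the furthest from 0 there (-3.76 and 3.63).

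Agreement in 3 of 3 pairs was found for few members in N polysomes (3 of 29 members, namely Phlda3, Dcxr and Ppm1d, against 20.7% of all genes) and for more in N total mRNA (20 of 29, against 43.7% of all genes). With N replicate 3 left out and the replicate block, 5 members were higher in CR-31-treated N polysomes (against 9.54% of all genes) and 3 lower (against 5.07% of all genes). The higher ones were Plk2 (0.50), Tnfrsf10b (0.40), Cd82 (0.40), Gtse1 (0.39) and Ckap2 (0.33), and the lower ones Zmat3, an RNA-binding zinc finger protein (-0.42), Triap1, a mitochondrial lipid transfer partner (-0.31), and Trp53inp1 (-0.30). This fit was chosen after seeing the data and left 2 N pairs. Tnfrsf10b and Ckap2 passed as higher in this N fit and in the blocked KP fit of all lysates, so the 2 fits used different lysates. With all lysates the block called 0% of all genes in N polysomes, and the KP calls were lost without both KP replicate 1 lysates.

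The difference of the CR-31 effect between KP and N was tested as an interaction. In polysomes 0 of 29 members passed (adjusted p = 0.999 for all), and Btg2 alone had an unadjusted p under 0.05 (2.63 ± 1.08, unadjusted p = 0.0312, edgeR), against 258 of all genes. Without N replicate 3 and with the block, the signed log2 change in KP minus that in N was positive for 5 members (against 10.9% of all genes). These were Trp53inp1 (0.46), Polk (0.40), Btg2 (0.39), Ppm1d (0.36) and Ckap2 (0.30). It was negative for 4 (against 15.7% of all genes), namely Phlda3 (-0.65), Cd82 (-0.54), Dcxr (-0.50) and Sfn (-0.49). A negative difference does not mean a weaker effect in KP. Dcxr changed by -0.077 and -0.088 in N replicates 1 and 2 and by -0.629, -0.841 and -0.228 in the KP replicates. In total mRNA 0 members passed, and 0 had an unadjusted p under 0.05. In polysomes 2 of 29 members, Phlda3 and Ppm1d, had one sign in every N replicate and the other in every KP replicate, against 6.74% of all genes, and in total mRNA 0 did, against 0.935%.

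Translational efficiency, the ratio of polysome-associated to total mRNA, was tested in 1 model of both fractions, blocked by lysate, as the difference between the fractions' group effects. Between KP and N in vehicle 0 of 29 members passed, with a lowest adjusted p of 0.433, as for all genes. Dcxr (0.68 ± 0.29, unadjusted p = 0.0345) and Phlda3 (0.52 ± 0.24, unadjusted p = 0.0476) in the direction of KP, and Ppm1d (-0.61 ± 0.23, unadjusted p = 0.0215) in the direction of N, had an unadjusted p under 0.05 in edgeR, as did 1296 of all genes. Without both N replicate 3 lysates 5 members passed as higher in KP (against 19.7% of all genes) and 3 as lower (against 15.6% of all genes). Dcxr (0.99, adjusted p = 0.0807), Phlda3 (0.69, adjusted p = 0.0857), Sfn (0.66), Cd82 (0.63) and Gdf15 (0.48) were higher, and Zmat3 (-0.50), Polk (-0.52) and Ppm1d (-0.39) lower.

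For CR-31 against vehicle no member's translational efficiency passed in KP (0 of 29, lowest adjusted p = 0.529, with Phlda3 alone and 627 of all genes under an unadjusted p of 0.05) or in N (0 of 29, lowest adjusted p = 0.736, with Plk2, Ppm1d and 328 of all genes under it). When polysome-associated mRNA was instead regressed on total mRNA, with the replicate block, 4 members passed as higher in CR-31-treated KP organoids (against 8.04% of all genes) and 2 as lower (against 8.67% of all genes). The higher ones were Plk2 (1.08), Btg2 (1.07), Ckap2 (0.70) and Ppm1d (0.50), and the lower ones Zmat3 (-0.55) and Dcxr (-0.54). These values depend on a fitted slope that was not limited as in the study, so the calls are not under its criteria. Plk2, Btg2 and Ppm1d also rose, and Zmat3 also fell, in every pair of KP total mRNA. Btg2 changed by 0.334, 0.682 and 0.501 in KP polysomes and by 0.420, 0.715 and 0.473 in KP total mRNA. Such values do not by themselves show changed translational efficiency. Dcxr and Ckap2 were called in the same direction by the blocked fit of polysome-associated mRNA, which uses the same libraries.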

How the data were processed

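The authors aligned reads with HISAT2, discarded reads with several locations and deposited raw read counts per RefSeq gene next to RPKM values, both from the RPKMforgenes script restricted to coding transcripts. The submitters' processing notes name GRCh38 and hg38 although the genes are mouse RefSeq genes, so no coordinates of the files were used. RPKM served only for levels per length. The members and lists were chosen with earlier results of these data known.

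Counts were analysed in R 4.3.3 with the quasi-likelihood test of edgeR 4.0.16 (TMM, each fraction fitted over its 4 groups, 11438 entries of 1 symbol with a count above 0 in every library, Benjamini-Hochberg adjustment over all of them, threshold 0.25 as in the study, 0.05 beside it). The 1042 entries of several symbols were left out. CPM are per TMM-scaled library. Translational efficiency used 1 model over 24 libraries. The study's Anota2seq regression was rebuilt as an alternative, called by adjusted p alone, without the study's further limits on slope and effect size. DESeq2 1.42.0, other scalings, filters, blocks and left-out lysates were also tried. Values per library were set for members with an adjusted p under 0.05 in KP against N in vehicle and for the 3 with the lowest p for CR-31 in polysomes of each type, and those of other members were added after their values were seen. Same-numbered N and KP libraries did not deviate together (r above 0.1 in 4 of 12 pairs), unlike same-numbered vehicle and CR-31 libraries (12 of 12). The procedure was tested on simulated data. For KP against N polysomes edgeR recovered 35 of 97 genes changed by 1 on the log2 scale and 74 of 98 changed by 2. For CR-31 in KP polysomes it recovered 32 of 97 and 77 of 98, and for translational efficiency 7 of 98 and 49 of 99. Of unchanged genes it called 37, 25 and 10, in the same order. The simulated libraries were drawn independently, without the pairing of the real ones, and few genes were changed. These rates therefore need not hold for the real libraries. The alleles of the tumour mice are not reported here.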

Additional observations from a re-analysis of the deposited data

Results flagged for a closer look

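For 2 members the CR-31 effect in polysome-associated mRNA had one sign in every N replicate and the other in every KP replicate (2 of 29, or 6.9%, against 6.74% of all genes). Phlda3 rose by 0.31, 0.26 and 0.16 (log2 ratio of CR-31 to vehicle) in N replicates 1 to 3 and gave -0.56, -0.42 and -0.07 in KP, so that the effect in KP minus that in N was -0.63. Ppm1d gave -0.11, -0.04 and -0.69 in N and 0.20, 0.51 and 0.16 in KP, a difference of 0.60. Neither interaction passed in edgeR (unadjusted p = 0.223 for Phlda3 and 0.107 for Ppm1d, adjusted p = 0.999 for both). With the replicate block within each type the adjusted p was 0.346 for Phlda3 and 0.347 for Ppm1d. With the block and without both N replicate 3 lysates both passed (-0.65, adjusted p = 0.0961, and 0.36, adjusted p = 0.2), and with the block and without both KP replicate 1 lysates neither did (adjusted p = 0.703 for both). Several of these ratios are close to 0, and that of Ppm1d in N rested mostly on replicate 3.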

How the results depend on the processing

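Of the member counts, 289 kept within 1.5 times the reported value under an alternative and 23 did not. The reported count was 0 for every CR-31, interaction and translational efficiency comparison. Counts of 0 that stayed 0 are among those kept, and a stricter threshold could not change them, so this tally does not measure stability. Of the fold changes of named members 720 kept direction and side of the threshold, 95 lost the call, 6 gained it and 8 changed sign. Pidd1, Dram1 and Fas passed in both fractions, Ckap2 in total mRNA, and Perp, Gtse1, Rps27l and Xpc in polysomes, under all 23 settings tried for KP against N in vehicle. The share of all genes that passed under every setting of that comparison was not counted. For that comparison an adjusted p of 0.05 gave 8 members in polysomes and 4 in total mRNA. Leaving out 1 lysate gave 10 (without KP vehicle replicate 1, against 28.6% of all genes) to 16 members (without N CR-31 replicate 3, against 45.7%) in polysomes, and 6 to 13 in total mRNA (the latter without N CR-31 replicate 1 or 3 or KP CR-31 replicate 1, against 30.5%, 30.9% and 33.1%), with 6 without KP vehicle replicate 1 (14.2% of all genes) and 7 without KP vehicle replicate 2 (20.5%) or N vehicle replicate 3 (16.1%). In CR-31, KP against N polysomes gave 13 members with only the groups compared (26.3% of all genes), 13 with a replicate block shared between N and KP (33.6%), 16 without both N replicate 3 lysates (34.4%) and 6 to 14 with 1 lysate left out (6 without KP CR-31 replicate 1, against 9.63%, and 14 without N vehicle replicate 3, against 32.3%), and total mRNA gave 5 at an adjusted p of 0.05 (10.6%) and 9 to 17 with 1 lysate left out (9 without KP CR-31 replicate 1, against 18.6% of all genes, and 17 without N vehicle replicate 1, against 41.6%). The shared block gave 19 members in vehicle polysomes (against 50% of all genes), 13 in vehicle total mRNA (against 35.5%) and 18 in CR-31 total mRNA (against 45.7%). Leaving out both KP replicate 1 lysates gave 9 members in vehicle polysomes and 8 in CR-31 total mRNA.

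For CR-31 against vehicle, the replicate block within each type gave 7 members in KP polysomes (against 19.3% of all genes) and changed no other count. The same block without both N replicate 3 lysates gave 18 in KP polysomes (against 25.1% of all genes higher and 29% lower). It gave 8 in N polysomes (against 9.54% higher and 5.07% lower) and 9 for the difference of effects (against 10.9% positive and 15.7% negative). Without both KP replicate 1 lysates the block gave 0 in KP polysomes and 6 in N total mRNA (against 14.7% of all genes). The regression on total mRNA with the block gave 6 members in KP (against 16.7% of all genes). The regression without the block gave 1 between KP and N in vehicle (Rps27l), or 1 of 29 against 10.5% of all genes. Neither applied the study's limits on slope and effect size. For translational efficiency between KP and N, leaving out 1 lysate gave 0 to 3 members (3 without N vehicle replicate 3, against 18.7%), and leaving out both N replicate 3 lysates gave 8. Half-sites with up to 1 mismatch gave 15 members. The effect of CR-31 in N changed sign without both N replicate 3 lysates for Btg2 in polysomes (0.15, and 0.11 with the block) and for Gdf15 in polysomes (0.12, and 0.08 with the block, and 0.13 without N vehicle replicate 3 alone) and in total mRNA (-0.0012, and -0.07 with the block, and -0.0017 without N CR-31 replicate 3 alone). With any 1 lysate left out these Gdf15 values ran from -2.19 to 0.13 in polysomes and from -0.0017 to 1.90 in total mRNA. The cause was not tested for the changes that do not follow from fewer samples or a stricter threshold. Settings that leave out the N replicate 3 or KP replicate 1 lysates, and the fit with entries of several symbols, were chosen after seeing the data. Each group had 3 libraries, the lowest member count in a library was 82, and whether depth limits these comparisons was not tested.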
